A study of Mus musculus with 2 samples.

Results

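The machinery of MHC class I presentation was followed through 10 genes: the heavy chains H2-D1, H2-K1 and H2-T23, the light chain B2m, the peptide transporter subunits Tap1 and Tap2, the loading factor Tapbp, and the inducible proteasome subunits Psmb8, Psmb9 and Psmb10. The members were chosen by symbol, as every probe set whose platform annotation names 1 of these genes and no other. This gave 26 of the 34945 probe sets that name a single gene, and they covered 9 of the 10 genes, out of 18193 genes in all. RNA came from mouse cells in 2 samples, with 1 array each: lymphoma cells grown in medium containing serum, and lymphoma cells grown together with endothelial cells. Endothelial cells line blood vessels. The lymphoma line and its strain, the source of the endothelial cells, the time in culture, the medium of the co-culture and any separation of the cell types before extraction are named by no label. No genetic change or drug is named for either sample.

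Class I molecules carry short peptides from inside the cell to its surface, where T cells and natural killer cells read them. Proteins are cut by the proteasome, whose 3 inducible subunits replace constitutive ones in immune cells and after interferon. Tap1 and Tap2 move the peptides into the endoplasmic reticulum, tapasin (Tapbp) bridges the transporter to the waiting heavy chain, and the heavy chain with beta-2-microglobulin (B2m) leaves for the surface once loaded. Interferon raises most of these genes together through shared promoter elements, and tumour cells often carry little of them. In the mouse the heavy chains H2-D1 and H2-K1 are close relatives whose sequence also differs between strains.

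Promoter sequence is shown for H2-D1 and H2-K1, whose brightest probe sets were at least 2-fold lower in co-culture. It is also shown for their partner B2m, which was within 2-fold, and for the stretch between Psmb9 and Tap1, which start back to back. The sequences are RefSeq's for GRCm38.p6, written 5′ to 3′ up to the base before the start site. A window was held for 9 of the 10 genes. Capitals mark letters that match GAAANNGAA (the core of an interferon-stimulated response element), TTCNNNGAA (an interferon-gamma activated site), GGGNNTTCC (NF-kappaB type) or TGACG (the cyclic AMP response element core found in the X2 box), on either strand.
H2-D1 (chr17:35262844-35263093, plus strand): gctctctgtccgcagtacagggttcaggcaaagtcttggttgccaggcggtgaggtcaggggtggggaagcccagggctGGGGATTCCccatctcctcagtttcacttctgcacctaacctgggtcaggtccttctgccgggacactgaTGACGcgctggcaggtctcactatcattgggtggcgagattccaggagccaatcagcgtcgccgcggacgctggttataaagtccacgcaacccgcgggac
H2-K1 (chr17:34000348-34000597, minus strand): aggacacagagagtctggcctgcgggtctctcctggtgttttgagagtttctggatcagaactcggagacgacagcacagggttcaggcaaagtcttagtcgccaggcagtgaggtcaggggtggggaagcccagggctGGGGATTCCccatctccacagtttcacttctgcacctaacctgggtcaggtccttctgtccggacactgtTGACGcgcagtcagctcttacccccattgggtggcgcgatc
B2m (chr2:122147437-122147686, plus strand): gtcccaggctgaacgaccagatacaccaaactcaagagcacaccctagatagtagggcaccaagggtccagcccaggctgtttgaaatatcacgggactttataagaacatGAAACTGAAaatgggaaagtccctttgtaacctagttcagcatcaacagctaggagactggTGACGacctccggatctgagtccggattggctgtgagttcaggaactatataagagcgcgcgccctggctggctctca
Psmb9 to Tap1 (chr17:34187331-34187555, plus strand of Tap1): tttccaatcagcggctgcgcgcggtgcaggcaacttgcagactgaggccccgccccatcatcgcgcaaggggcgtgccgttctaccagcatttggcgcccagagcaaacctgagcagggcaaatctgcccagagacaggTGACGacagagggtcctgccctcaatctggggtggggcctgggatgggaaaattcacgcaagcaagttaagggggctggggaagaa

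The H2-D1 and H2-K1 stretches hold the same 2 matches, GGGGATTCC and, 70 bases further on, TGACG. Laid side by side without gaps they were identical at 166 of 190 bases (87.4%), with a longest identical run of 47 bases. The RefSeq model of H2-K1 reaches further upstream than this start site, so the stretch printed lies wholly inside the gene. B2m has an interferon-type match, GAAACTGAA, 139 bases before its start, and a TGACG. The 225 bases between the start sites of Psmb9 and Tap1 hold 1 TGACG. Of all 32851 windows of 300 bases (250 before and 50 after a start site), 5.82% hold the NF-kappaB type letters, 8.56% the interferon-stimulated type, 8.3% the interferon-gamma type and 20.8% TGACG. Of the 10 windows of members, 2 of them for H2-K1, the numbers in the same order were 3, 2, 1 and 6. The interferon-stimulated matches were in B2m and H2-T23, and the interferon-gamma match was in Psmb8. Psmb10 and Tapbp had no match of any type. These matches describe letters and are not measured binding sites. Only exact letters were marked, so a stretch without a match may still hold a near form of an element. After GGGGATTCC, H2-D1 has ctcagtttc, 1 letter off the interferon-stimulated core read on the other strand. H2-K1 has cacagtttc at the same place, 2 letters off. The 2 stretches differ there in 1 letter and both read on as cagtttcacttct. These counts of letters therefore do not rank the 2 promoters.

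On the array of the endothelial co-culture the 2 classical heavy chains H2-D1 and H2-K1 and the transporter subunit Tap1 were lower than in serum culture by 2-fold or more, by the brightest probe set of each gene. B2m, Tapbp, Psmb9 and Psmb10 lay within 2-fold, and Tap2 and Psmb8 were not above the floor on either array. Thus 3 of 7 measured genes were lower by this limit and 0 of 7 higher. Of all 11559 measured genes, 9.97% were lower and 4.52% higher by the same limit. The median log2 difference, co-culture minus serum, was -0.19 over the 7 genes and -0.06 over all measured genes. Intensity is the brightness of a probe set on a linear scale, as deposited. The floor is the median of all values of both arrays (44.3), lower values were set to it, and a gene counts as measured when its brightest probe set lies above it on at least 1 array. There are no replicates, so no value here has a test against the spread between cultures, and the number of arrays limits the precision. As a measure of probe error, log2 differences of several measured probe sets of 1 gene had a pooled SD of 0.60 over 5478 genes, 0.67 at a mean intensity below 200 and 0.57 at 200 or more. In bulk RNA, fewer cells of a type and less RNA per cell cannot be told apart.

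**Figure D1:**
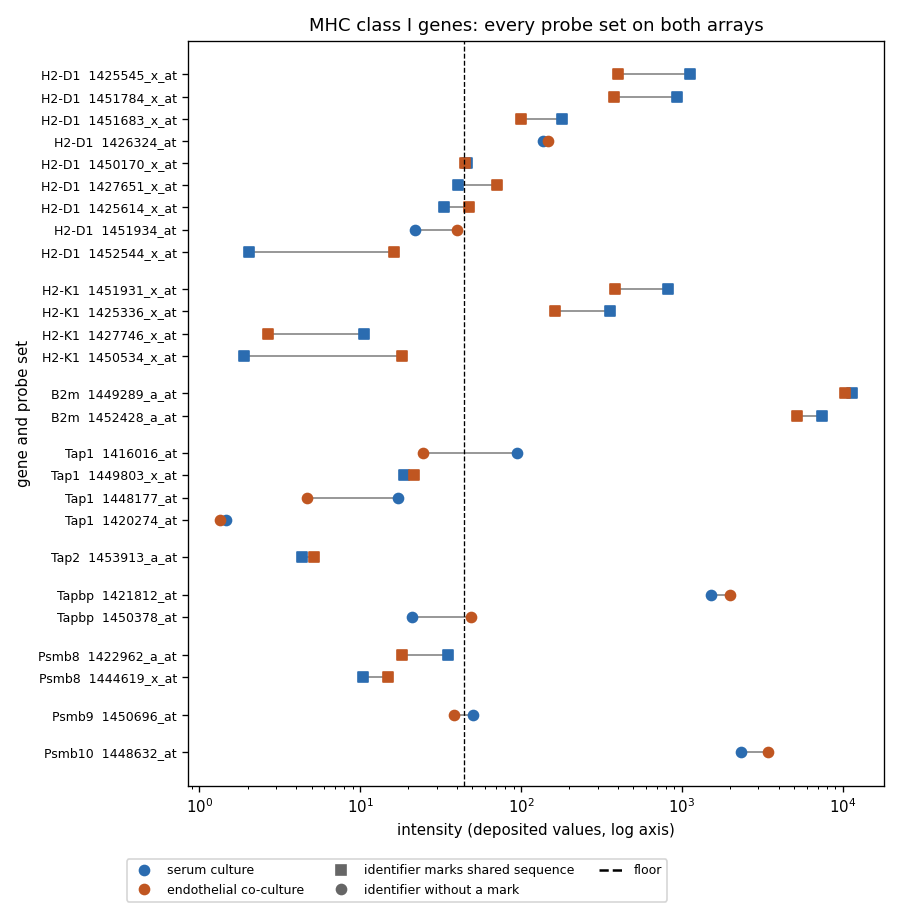
Intensity of each of the 26 probe sets (horizontal log axis) on the array of the serum culture (blue) and of the endothelial co-culture (orange), by gene; squares are identifiers that mark shared sequence, circles those without a mark, and the dashed line is the floor of 44.3. The bright H2-D1 and H2-K1 squares lie to the left in co-culture, while the H2-D1 circle above the floor (137.5 and 147) barely differs.

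Both arrays had a trimmed mean of 500.003, and the share of probe sets above the floor was 47.3% for serum culture and 52.7% for co-culture. Most markers of blood cells were below it: only 3 of 9 B cell genes and 2 of 8 pan-leukocyte genes were measured. Ptprc (CD45) had 21.5 in serum culture and 3.14 in co-culture, and the B cell receptor chain Cd79a had 34.7 and 30.9. Endothelial markers were also low, with 2 of 12 measured and summed intensities of 305 in serum culture and 350 in co-culture. Among them Pecam1 had 21.3 and 18.4, and Cdh5 had 19.6 and 44.1. Summed over the lists, B cell markers gave 275 and 378, pan-leukocyte markers 308 and 232, T cell markers 67.8 and 88.3, macrophage and dendritic cell markers 114 and 234, fibroblast markers 338 and 346, and epithelial markers 103 and 185. These sums include values below the floor. Measured were 1 of 5 T cell, 2 of 6 macrophage and dendritic cell, 5 of 6 fibroblast and 1 of 4 epithelial genes. The median of all probe sets was also higher in co-culture (50.7, against 36.9 in serum culture), so a higher sum is not read as more cells of a type. No marker of these 7 lists reached 200 on either array, which goes against the lymphoma label, although Cd74 and Ctss, genes active in many immune cells, were bright (values below). The samples are named here by their labels only. The ratio of 3′ to 5′ signal, a sign of RNA length, was 3.56 and 2.05 for beta-actin, 2.54 and 1.88 for Gapdh, and 13.2 and 5.03 for the transferrin receptor Tfrc, and its part in the differences below was not tested.

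H2-D1 encodes a classical heavy chain that presents peptides to cytotoxic T cells, and it had 9 probe sets. The brightest, 1425545_x_at, had an intensity of 1120.5 in serum culture and 403 in co-culture, 2.78-fold lower (log2 difference -1.48). The next, 1451784_x_at, had 935 and 377, 2.48-fold lower, and 1451683_x_at had 179 and 99.6, or 1.80-fold, just short of the limit. These 3 share the higher value in serum culture. The only probe set without a shared-sequence mark above the floor, 1426324_at, gave 137.5 and 147, a log2 difference of 0.10. Of the other 5, 1450170_x_at had 46.1 and 45.2, 1427651_x_at had 40.9 and 71.5, and 1425614_x_at had 33.1 and 47.3. The remaining 2 were below the floor on both arrays. The 7 measured probe sets of H2-D1 therefore ran from -1.48 to 0.69 on the log2 scale, with an SD of 0.82.

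An identifier ending in _x_at marks probes that can also bind other transcripts, _s_at marks a probe set that matches several transcripts, and _a_at marks transcripts of 1 gene. For H2-D1 the brightest marked and the brightest unmarked probe set differed by -1.57 in their log2 differences. Of 737 genes with both a measured _x_at and a measured unmarked probe set, 26 (3.53%) had a gap at least as large in either direction. Averaged over all its measured probe sets of each kind, H2-D1 had -0.48 over 6 marked and 0.10 over 1 unmarked, a gap of -0.58 that 225 of the 737 genes (30.5%) reached in either direction. The transcripts that the marked probe sets bound in these cells were not tested.

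H2-K1, the other classical heavy chain, had 4 probe sets, all ending in _x_at. The brightest, 1451931_x_at, had 825 in serum culture and 387 in co-culture, 2.13-fold lower (log2 difference -1.09). The next, 1425336_x_at, had 359 and 163, 2.21-fold lower. Both measured probe sets were thus lower by nearly the same amount, with an SD of 0.04 between their log2 differences. The remaining 2 stayed at or below 18.2 on both arrays. Since each H2-K1 probe set may also bind relatives such as H2-D1, its value has no check from unmarked sequence on these arrays.

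H2-T23 encodes the non-classical heavy chain Qa-1, which natural killer cells read through an inhibitory receptor, and it had no probe set of its own. Both probe sets listed with it also list the pseudogene H2-T-ps, and they read 6.60 and 4.12 in serum culture and 26.0 and 19.8 in co-culture, all below the floor. The other 3 probe sets that list a member together with another gene were dim, with at most 72.1 on either array. A further shared probe set, 1449875_s_at, listed with H2-T9, H2-T22 and H2-T10 and picked out after its values were seen, had 348 in serum culture and 159 in co-culture, 2.19-fold lower. No gene was named from these.

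B2m, the light chain without which heavy chains do not reach the surface, had intensities of 11475 in serum culture and 10400.5 in co-culture by 1449289_a_at, a log2 difference of -0.14. Its other probe set, 1452428_a_at, had 7426 and 5233, a difference of -0.50. Both were somewhat lower in co-culture and within 2-fold. Between themselves they had an SD of 0.26. The log2 differences of H2-D1 and H2-K1 by their brightest probe sets were thus further from 0 than either value of their partner.

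Of the transporter, Tap1 had 94.5 in serum culture and 24.6 in co-culture by 1416016_at, whose identifier carries no mark. The co-culture value lies below the floor and close to the highest of the 27 bacterial control probe sets (21.7), so the gene was at least 2.13-fold lower (log2 difference -1.09 or beyond). The other 3 Tap1 probe sets were below the floor on both arrays, with at most 21.6. Tap1 is therefore a low reading that rests on 1 probe set. Tap2, the other transporter subunit, was below the floor with 4.37 and 5.17. Tapbp, which holds the empty heavy chain at the transporter and edits its peptide, was bright by 1421812_at, with 1524 and 1984, a log2 difference of 0.38. Its second probe set, 1450378_at, had 21.0 and 48.7.

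Among the inducible proteasome subunits only Psmb10 was bright. It replaces the constitutive Psmb7 and had 2329 in serum culture and 3454 in co-culture, 1.48-fold higher (log2 difference 0.57), about the size of the pooled SD between probe sets at this brightness. Psmb9, which replaces Psmb6, had 50.5 and 38.6, at the floor. Psmb8, which replaces Psmb5, had 35.0 and 18.3 by 1422962_a_at and 10.5 and 14.9 by 1444619_x_at, all below it. Psmb9, Tap1, Psmb8 and Tap2 follow each other on chromosome 17 with no other protein-coding gene between them. None of these 4 genes exceeded 94.5 on either array. Psmb10 lies on chromosome 8, and Tapbp elsewhere on chromosome 17. The constitutive subunits were bright on both arrays: Psmb5 had 3475 and 4700 (log2 difference 0.44), Psmb6 5592 and 6713 (0.26), and Psmb7 9268 and 11135 (0.26). Within the arrays, the log2 difference of Psmb10 exceeded that of Psmb7 by 0.30, while that of Psmb9, with 1 array at the floor, minus that of Psmb6 was -0.45.

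**Figure D2:**
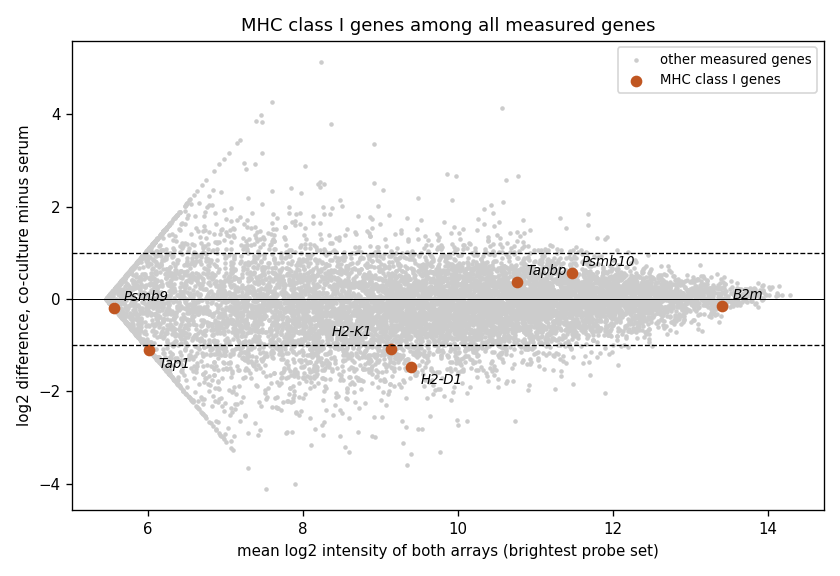
Log2 difference, co-culture minus serum, against the mean log2 intensity of both arrays for the brightest probe set of each of 11559 measured genes (grey), with the 7 measured members in orange and the 2-fold limits dashed. H2-D1, H2-K1 and Tap1 lie below the lower limit; the lines of points that fan out at the left are genes with 1 array at the floor.

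Counted by probe set, 16 of the 26 were measured, 5 of these were at least 2-fold lower and 0 higher. Over all 21156 measured probe sets, 8.06% were lower and 8.16% higher. Among probe sets with a shared-sequence mark 4 of 10 were lower, against 7.81% lower and 6.71% higher over all 5738 marked ones. Among those without a mark 1 of 6 was lower, the Tap1 probe set, against 8.15% lower and 8.7% higher over all 15418 unmarked ones. The median log2 difference of the members was -0.68 over the 10 marked and 0.12 over the 6 unmarked probe sets, while over all probe sets of these kinds it was -0.01 and 0.05. Marked and unmarked probe sets of the members do not cover the same genes: the marked ones are those of H2-D1, H2-K1 and B2m, and the unmarked ones those of H2-D1, Tap1, Tapbp, Psmb9 and Psmb10. Only H2-D1 has measured probe sets of both kinds.

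Genes that act around the class I pathway were mostly bright and within 2-fold. Of 14 measured genes of peptide loading and trimming 0 were lower and 0 higher by the limit, 11 had a difference above 0, and the median was 0.13. Calreticulin (Calr), a chaperone of the loading complex, had 9238 and 12573 (log2 difference 0.44), calnexin (Canx), which folds new heavy chains, 7221 and 8481 (0.23), and Pdia3, the disulfide isomerase bound to tapasin, 4939 and 5811 (0.23). Erap1, which trims peptides to length, had 397 and 670 (0.75). Other probe sets gave up to 1.39 for Canx, 1.56 for Pdia3 and, for the peptidase Tpp2, 1.97 against 0.02 by its brightest. All 7 constitutive beta subunits of the proteasome lay within 2-fold, with a median of 0.23. Of 7 activators and assembly factors 1 was higher, Psme3, a nuclear proteasome activator, with 1949 and 3983 (2.04-fold, but 0.17 on the log2 scale by its other probe set). Psme1, a subunit of the interferon-inducible activator, had 1421 and 2212 (0.64). Its partner Psme2 is listed together with Psme2b and was not named.

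The transcription factors of class I genes went in both directions. The median of the 14 measured was -0.04, with 2 below the lower limit and 1 above the upper. Irf1, an activator of class I and Tap1 transcription, had 287 in serum culture and 625 in co-culture, 2.18-fold higher. Irf2, which binds the same elements, had 1146 and 321, a log2 difference of -1.83. Nlrc5, the transactivator devoted to class I genes, had 270 and 198 (-0.44). Rfxank, a subunit of the RFX complex at the X box, had 250.4 and 98.1 (-1.35), but up to 0.36 by another of its 3 measured probe sets. None of the 9 measured interferon receptor and kinase genes passed the limit in either direction (median 0.01), and Ifngr1, the ligand-binding chain of the interferon-gamma receptor, had 111 and 119.

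Of 6 measured genes in the list of other class I and class I-like genes, 2 passed the limit downwards and 0 upwards, and the median was -0.81. Over all measured genes 9.97% were lower and 4.52% higher. The 1 gene of the list above 0, named after its values were seen, was H2-T24. It had 22.8 in serum culture, below the floor, and 78.0 in co-culture, at least 1.76-fold higher. Hfe, a class I-like protein that limits iron uptake and pairs with B2m, had 278 in serum culture and 58.6 in co-culture (log2 difference -2.25, and -1.78 by its other probe set). Mr1, which presents vitamin metabolites to innate-like T cells and also pairs with B2m, had 111 and 49.6 (-1.16). H2-Ke6, placed in that list by its name, encodes a metabolic enzyme of the MHC region and not a heavy chain, and it had 1465 and 786 (-0.90). Its value enters the median of the list. The class II presentation list had 4 measured genes out of 11 represented on the array, and 1 was lower, H2-DMa, which loads peptides on class II molecules, with 93.2 and 34.0 (at least 2.10-fold). Also named after their values were seen, the invariant chain Cd74 had 726 and 477 (-0.61) and the protease Ctss 1534 and 1337 (-0.20), whereas the class II chains H2-Aa, H2-Ab1 and H2-Eb1 were below the floor on both arrays.

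**Figure D3:**
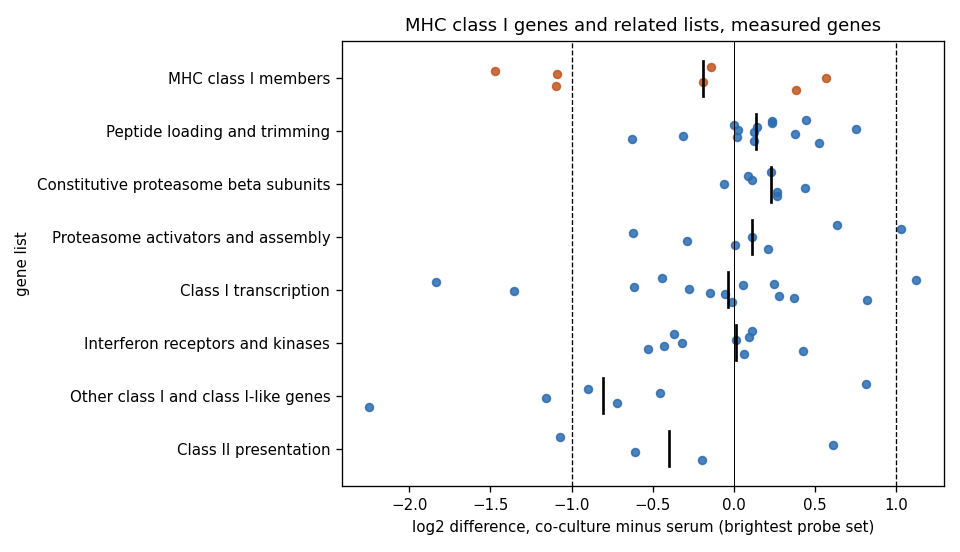
Log2 difference, co-culture minus serum, of the brightest probe set of each measured gene (points) in the class I members and in 7 related lists, with list medians as black bars and the 2-fold limits dashed. The members lie at both sides of 0, from -1.48 to 0.57, and none lies above the upper limit.

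The call of H2-D1 rests on the choice of probe set, and that of H2-K1 on _x_at probe sets alone. With the median over measured probe sets H2-K1 was still at least 2-fold lower, and H2-D1 was not. With probe sets ending in _x_at or _s_at left out, H2-D1 had a log2 difference of 0.10 in place of -1.48, H2-K1 had no value, and 1 of 6 measured members was lower, Tap1, against 9.88% of all genes measured in that setting. With the mean over all probe sets, which includes those at the floor, H2-D1 had -0.31, H2-K1 -0.56 and Tap1 -0.27, and no member passed the limit, against 5.65% of all measured genes lower and 3.57% higher. The 18 hybridisation spike probe sets were 0.19 higher on the co-culture array on the log2 scale. Scaling to them gave -1.67 for H2-D1, -1.28 for H2-K1 and 0.38 for Psmb10. The median of all measured genes then moved from -0.06 to -0.25, and 13.9% of them were lower and 3.05% higher. B2m, Tapbp and Psmb10 stayed within 2-fold under every alternative that gave them a value, with ranges of -0.33 to -0.14, 0.19 to 0.43 and 0.38 to 0.58.

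**Figure D4:**
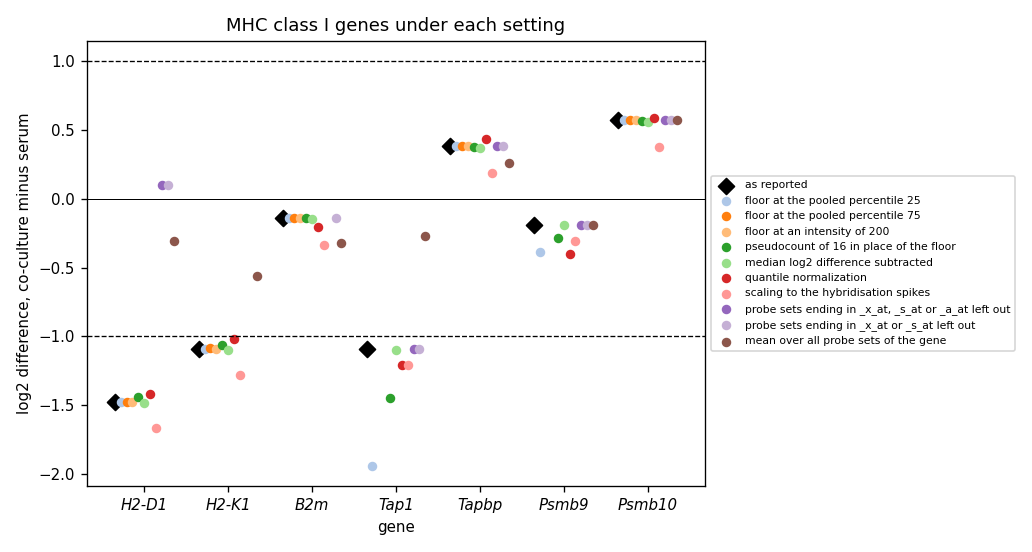
Log2 difference, co-culture minus serum, of each measured member as reported (black diamonds) and under each alternative setting (coloured points), with the 2-fold limits dashed. H2-D1 moves from -1.48 to 0.10 when marked probe sets are left out, while Psmb10 stays between 0.38 and 0.58.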

How the data were processed

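Per the labels' protocols, total RNA was made into biotin-labelled cRNA for 1-colour arrays. The authors deposited 1 linear intensity per probe set for 45101 probe sets. Array software, background correction and scaling: not given in the sources used here. Equal trimmed means after 2% was removed at each end (500.003) are seen in the values, with medians of 36.9 and 50.7. Scaling to a common mean makes each difference relative to all other genes.

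Gene names came from the platform annotation, with symbols updated by gene number to RefSeq GRCm38.p6: 34958 had 1 gene, 932 several and 9211 none. Control probe sets were left out, leaving 34945. Values below the floor (percentile 50 of all values, 44.3) were raised to it before log2, and each gene was represented by its brightest probe set (highest mean log2). The limit was 2-fold, a log2 difference of 1. There were 1 array per group and no test. The number of arrays limits the precision, and the intensities give no counts.

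All 10 members were named, with 13 fixed genes of related lists, up to 4 further genes per related list past 2-fold, and 4 markers. The members and lists were chosen with earlier results of these data known. The alternatives were other floors (percentiles 25 and 75, and 200), a pseudocount of 16, subtraction of the median difference, quantile normalization, spike scaling, leaving out marked probe sets, and the mean or median over probe sets. The steps were tested on simulated data. Python 3.11.15, pandas 2.3.3 and numpy 2.4.6 were used.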

Additional observations from a re-analysis of the deposited data

How the results depend on the processing

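The count of 3 lower member genes, of 7 measured, became 1 of 6 when probe sets ending in _x_at or _s_at were left out, against 9.88% of all measured genes. With those ending in _a_at left out too it was 1 of 5, against 9.79%. It became 0 of 7 with the mean over all probe sets, against 5.65%. It was 2 of 5 with the floor at percentile 75, against 5.50%, and 2 of 5 with the floor at 200, against 7.75%. Tap1 was no longer measured at either floor. With the median over measured probe sets it was 2 of 7, against 8.13%. H2-D1 was then within 2-fold, its middle probe set being 1450170_x_at with a log2 difference of -0.03. The count of 5 lower probe sets, of 16 measured, became 3 of 7 with the floor at percentile 75 and 3 of 8 with the floor at 200. It became 1 of 8 with _x_at and _s_at left out. With all marked probe sets left out it was 1 of 6, against 8.15% of all unmarked probe sets. Shares over all probe sets in the other settings are not given here. The count of 0 higher probe sets became 1 with the floor at percentile 25, the second Tapbp probe set (log2 difference 1.21 before any floor). H2-D1 changed sign to 0.10 in both settings that leave out marked probe sets. Tap1 had -1.94 with the floor at percentile 25. With that floor 12.6% of all measured genes were higher and 9.90% lower, against 4.52% and 9.97% as reported. The median over member genes moved between -0.66 (floor at percentile 25) and 0.10 (all marked probe sets left out). Over all measured genes it was 0.04 and -0.04 in these settings. No paired analysis was possible because each group has 1 array. Dim signal limits Tap1, Tap2, Psmb8 and Psmb9, which lie near or below the floor.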
